A study of Mus musculus with 4 samples.

Results

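The nuclear genes whose proteins copy, transcribe and translate mitochondrial DNA (mtDNA) were followed in RNA from brown adipose tissue (BAT) of mice. The members were the rows of the deposited table whose gene symbol stood in a list of 50 factors, and all 50 were found among the 17259 genes listed. They comprised 5 genes of mtDNA replication, 7 of mtDNA transcription and packaging, 15 of mitochondrial RNA processing and stability, 8 mitochondrial translation factors and 15 mitochondrial tRNA synthetases. The list was made by function, with earlier results of these data known, and its rule uses no measured value.

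The libraries fell into 2 groups of 2, all from wild-type BAT. The first, titled BAT-Mito, came from isolated mitochondria. The second, titled BAT-total, is labelled as tissue from which mitochondria had been taken away and is called the non-mitochondrial fraction here. The study also speaks of lysates of whole BAT for it, in which case its values are those of the whole tissue. For these libraries the strain, age, sex and number of animals are not given in the sources used here. Both groups had RNA extracted with TRIzol and columns with DNase treatment and made into libraries with a kit for small amounts of RNA, while the fragmentation time of mitochondria samples was adjusted to their RNA. The study's isolation method, described for hearts, also treats mitochondria with digitonin and RNase A before RNA extraction. Whether BAT mitochondria were treated in this way is not stated there. Handling, library preparation and fraction can therefore not be told apart.

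Mitochondria carry a small circular genome that encodes a few subunits of the respiratory chain with the rRNAs and tRNAs needed to make them. Everything else that genome requires is encoded in the nucleus, translated on cytosolic ribosomes and imported as protein. POLG copies mtDNA behind the helicase TWNK, TFAM packages it, and POLRMT with TFB2M transcribes it. The long transcripts are cut, modified, given tails and degraded by a further set of proteins, and are read by a ribosome with its own initiation, elongation and release factors and its own charged tRNAs. Brown adipocytes, which burn fuel for heat, are rich in mitochondria.

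Few reads of the members' mRNAs were found in the mitochondria libraries. The authors' values are gene counts scaled by a factor per library, called normalised counts, and in the mitochondria libraries they rose in steps of 1 read (8.32 units for replicate 1, 6.9 for replicate 2). The members took 129 of 26288871 reads in replicate 1 and 220 of 24910434 reads in replicate 2. Transcripts of mtDNA itself took 95.3% and 95.5% of these libraries, which left 1248730 and 1129485 reads for nuclear genes. With the 17 nuclear genes that matched a mitochondrial transcript taken out as well, 59288 and 67370 reads remained. In the non-mitochondrial fraction the members' values summed to 2388 and 2090 of normalised totals of 1590096 and 1905303, 51.1% and 59.3% of which came from mtDNA. The reads behind a unit are not known there. In bulk RNA of this kind, fewer cells of a type and less RNA per cell cannot be told apart.

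Among nuclear transcripts without a mitochondrial match, the members' share differed by less than the spread between replicates. Of nuclear values without mitochondrial matches the members made up 0.217% (95% Wilson interval 0.183 to 0.258%) and 0.327% (0.286 to 0.373%) in mitochondria, against 0.324% and 0.288% outside. Mitochondria replicate 2 thus lay above both non-mitochondrial libraries and replicate 1 below both. The means were 0.272% ± 0.0773 and 0.306% ± 0.025 (SD, n = 2 each), with a two-sided exact permutation p of 1.0, where 2 libraries against 2 can give no p below 0.333. The result rests on leaving out the 17 nuclear genes that match mitochondrial transcripts. With them in the total, the shares were 0.0149% ± 0.00651 in mitochondria and 0.288% ± 0.0265 outside, a 19.3-fold difference beyond the spread of either group (exact p 0.333). Intervals and floors cover counting error only.

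**Figure D1:**
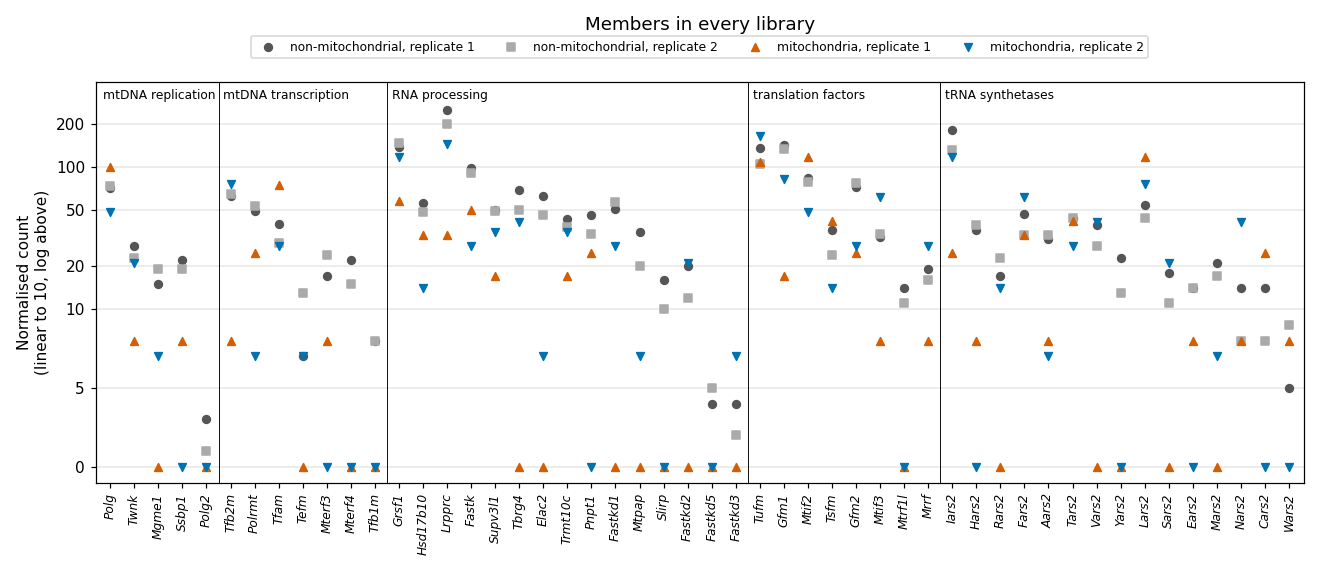
Normalised count (vertical axis, linear to 10 and logarithmic above) of each of the 50 members in the 4 libraries, grouped by role and ordered within a role by level per kb in the non-mitochondrial fraction. Circles and squares are the non-mitochondrial replicates and triangles the mitochondria replicates, and 7 members stand at 0 in both mitochondria libraries.

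The members differed widely in level in the non-mitochondrial fraction. Normalised counts per kb of annotated exon ran from 0.459 for Polg2 to 56.9 for Tufm, with a median of 6.41, and 8 members lay above 20, 23 from 5 to 20 and 19 under 5. The head of the order was Tufm at 56.9 per kb, Grsf1 at 47.3, Hsd17b10 at 40.1, Gfm1 at 31.3, Lrpprc at 26.7, Tfb2m at 22.8, Fastk at 21.6 and Mtif2 at 21.1. Each step in this series down to Fastk separated the replicates of both neighbours, while those of Fastk and Mtif2 overlapped. Along the whole order, neighbours were set apart beyond their replicates in 10 places, 6 of them in this head. Among members with a mean of at least 10 outside mitochondria, the outside replicates differed by at most 1.86 times. Median levels were 5.08 per kb for replication, 6.37 for transcription and packaging, 13.5 for RNA processing, 8.63 for translation factors and 5.72 for synthetases.

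**Figure D2:**
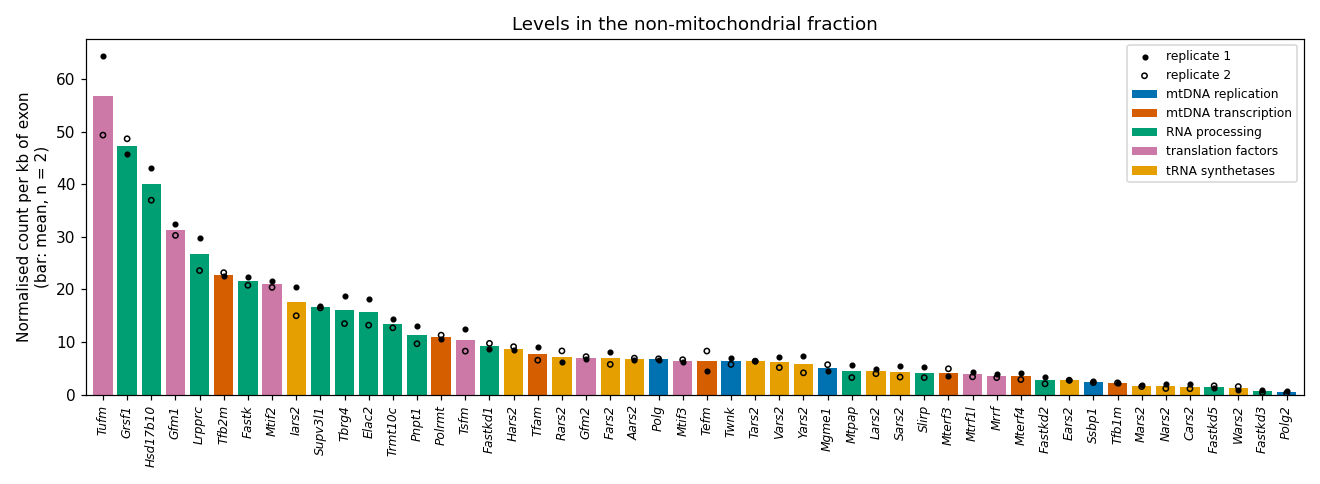
Normalised count per kb of exon (vertical axis) of the 50 members in the non-mitochondrial fraction, in falling order and coloured by role. Bars are the mean of 2 libraries and points the replicates; levels fall from 56.9 for Tufm to 0.459 for Polg2, and replicates of neighbours overlap over most of the order.

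The replication genes lay between 0.459 and 6.7 normalised counts per kb outside mitochondria, with Polg (6.7) and Twnk (6.35) overlapping at the upper end and near the median of all members. Polg encodes the catalytic subunit of the mtDNA polymerase (mm10, chromosome 7, 79446231 to 79466362, minus strand). It had normalised counts of 100 and 48 in mitochondria against 71 and 73 outside, in the non-mitochondrial fraction. The mitochondria values lay on either side of the other 2, and the log2 fold change was -0.05 (SE 0.57, limma adjusted p 0.954), and 0.24 with TMM scaling. Twnk, the replicative helicase, was at 8 and 21 against 28 and 23, with log2 fold change -0.91 (SE 0.65, limma adjusted p 0.454), or -0.26 and -1.55 without mitochondria replicate 1 and 2. Mgme1, a nuclease that processes mtDNA ends, was at 0 and 7 against 15 and 19. Ssbp1, the single-strand DNA binding protein, was at 8 and 0 against 22 and 19. These 3 genes lay below both non-mitochondrial values in both mitochondria libraries, at 4, 1 and 1 reads in all. The same was true of 52.1% of all genes tested. Polg2, the accessory subunit of the polymerase and the lowest member of all, was at 0 and 0 against 3 and 1. That level lies under the floor of 3 reads per mitochondria library, which averages 22.8 units, and no fold is given.

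Of the transcription and packaging genes, Tfam and Tfb2m were seen most often in mitochondria. Tfam, which binds and compacts mtDNA and opens its promoters, was at 75 and 28 in mitochondria against 40 and 29 outside. One mitochondria value was above and one below both others, and the log2 fold change was 0.42 (SE 0.69, limma adjusted p 0.702). Tfb2m, the initiation factor of the mitochondrial RNA polymerase, was at 8 and 76 against 63 and 65. Its 12 reads came as 1 and 11, so the 2 mitochondria libraries differed from each other by more than either did from the mean of the fraction outside on the linear scale. Polrmt, the RNA polymerase, was lower in both mitochondria libraries, at 25 and 7 against 49 and 53, with log2 fold change -1.85 (SE 0.77, limma adjusted p 0.312), or -2.7 and -1.0 without mitochondria replicate 1 and 2. Tefm, the elongation factor, was at 0 and 7 against 7 and 13. Mterf3, a negative regulator of mtDNA transcription, was at 8 and 0 against 17 and 24. Mterf4, which acts in assembly of the mitochondrial ribosome, was at 0 and 0 against 22 and 15. Tfb1m, an rRNA methyltransferase and the lowest of this role per kb, was at 0 and 0 against 8 and 8. Outside mitochondria, Mterf4 and Tfb1m lay below 22.8 units, the mean value of 3 reads in a mitochondria library. The reads behind a unit are not known outside, so that floor does not apply there.

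The promoters of the members held a few short motifs of factors known to act on genes of mitochondrial proteins. RefSeq promoter windows (GRCm38.p6, 250 bases before to 50 after the gene start) were matched for 46 members, and none were matched for Hars2, Mterf3, Mtif3 and Mtpap. The motifs were written down with the values of the members known, and each was searched on both strands. The ETS motif CCGGAAGT, the binding site of the GA-binding protein (NRF-2), stood in 9 of the 46 (19.6%), against 10.5% of 6486 protein-coding genes with a mean of at least 10 outside mitochondria and 4.31% of all 27025 genes in the RefSeq set. The YY1 motif AAGATGGC stood in 7 (15.2%, against 6.11% and 3.19%). The NRF-1 motif GCGCANGCG stood in 10 (21.7%, against 17.4% and 7.03%), but in 5 (10.9%, against 13.0% and 5.19%) when a further C was required at its 3′ end, so its order against other expressed genes turned with 1 letter. The motif of estrogen-related receptors TCAAGGTCA stood in 1, Mtrf1l (2.17%, against 0.231% and 0.466%). The motifs can overlap one another. The members were not held to a mean of at least 10 outside. Of those below it, Fastkd5, Fastkd3 and Wars2 carried a motif, and Polg2 and Tfb1m carried none. No test was made, and a match is not a bound site.

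The ETS motif was found in the windows of both the polymerase and the helicase of replication, and of 2 transcription genes, Tfam and Tefm. These 4 genes were picked because they carry the motif. It was not found in the windows of Polrmt, Tfb2m, Ssbp1, Mgme1 and Polg2. Its other carriers were Fastkd5, Gfm1, Rars2, Trmt10c and Tufm. The stretches around it are shown in the direction of the gene, with the motif or its reverse complement in capitals.
Polg: aggacctcacCCGGAAGTccctctgcac
Twnk: ctaaccggtgACTTCCGGttccggggtt
Tfam: ctgccgcggaCCGGAAGTccgggcttcc
Tefm: gcacacgaaaCCGGAAGTt
They lie at chr7:79466294-79466321, chr19:45006437-45006464, chr10:71238074-71238101 and chr11:80142154-80142172 (GRCm38.p6), on the minus, plus, minus and minus strand. The first base of the motif is 38, 111, 47 and 9 bases before the RefSeq gene start. These 4 genes did not share a pattern between the fractions, at 19, 4, 13 and 1 reads in mitochondria. For all 4 the stretch lies inside the gene bounds given in the deposited table, which begin further upstream.

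The RNA processing genes had the lowest pooled ratio of mitochondria to outside among the roles. Their reads came to 28 and 70, and the summed values in mitochondria were 0.408 times those of the non-mitochondrial fraction (95% Poisson counting interval of the reads 0.332 to 0.498). The ratio was 0.265 in replicate 1 and 0.552 in replicate 2. By library, replication was at 0.847 and 0.555, and transcription and packaging at 0.562 and 0.571. In replicate 2 RNA processing thus lay close to these roles. The same ratio was 0.637 (0.633 to 0.641) over all 12959 protein-coding nuclear genes without a mitochondrial match, at 0.644 and 0.631. Both mitochondria libraries thus gave RNA processing, and also transcription and packaging, a lower ratio than these protein-coding genes. Over the 10958 of these genes within the range of levels of the members it was 0.706, at 0.778 and 0.634. The 12 tested genes of the role all had negative log2 fold changes, from -4.28 to -0.7, and none passed the test. Of the 39 tested members 34 had negative fold changes, and the median over all genes tested was -1.23.

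Grsf1, an RNA-binding protein of mitochondrial RNA granules, was at 58 and 117 in mitochondria against 139 and 148 outside. Hsd17b10, a subunit of mitochondrial RNase P that is also a dehydrogenase, was at 33 and 14 against 56 and 48. Lrpprc, which keeps mitochondrial mRNAs stable and lets them be polyadenylated, was at 33 and 145 against 253 and 201. All 3 lay below both outside values in both mitochondria libraries, as did 52.1% of all genes tested. Their log2 fold changes were -0.79 (SE 0.56), -1.23 (SE 0.61) and -1.68 (SE 0.91). Without mitochondria replicate 1 these were -0.29, -1.82 and -0.63, and without replicate 2 -1.29, -0.64 and -2.74. Lrpprc had the highest normalised count, not divided by length, of all members outside, and its pooled ratio was 0.392 (0.254 to 0.579). By library that ratio was 0.145 in replicate 1 and 0.639 in replicate 2, so the low value came from replicate 1, and replicate 2 lay at the 0.631 of protein-coding genes in that library.

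Fastk, founder of a family of mitochondrial RNA-binding proteins, was at 50 and 28 against 98 and 91 (log2 fold change -1.31, SE 0.51, limma adjusted p 0.301). Its relatives had lower levels outside. Fastkd1 was at 0 and 28 against 51 and 57, Fastkd2 at 0 and 21 against 20 and 12, and Fastkd5 at 0 and 0 against 4 and 5. Fastkd3, the lowest of the role per kb, was at 0 and 7 against 4 and 2. Elac2, which trims the 3′ ends of mitochondrial tRNAs, had the lowest fold change of any member and is named for that, after its values were seen. It was at 0 and 7, a single read, against 63 and 46, and its log2 fold change was -4.28 (SE 1.23, limma adjusted p 0.243). Without mitochondria replicate 1 it was -2.78, without replicate 2 -5.78, and with a pseudocount of 10 -2.29. The counting interval of its ratio, 0.00163 to 0.358, lay below 0.637. The remaining 6 genes of the role, Supv3l1, Tbrg4, Trmt10c, Pnpt1, Mtpap and Slirp, had means of 13.0 to 59.5 outside and 0 to 7 reads in mitochondria. All were below both outside values in both libraries, as were 52.1% of all genes tested.

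**Figure D3:**
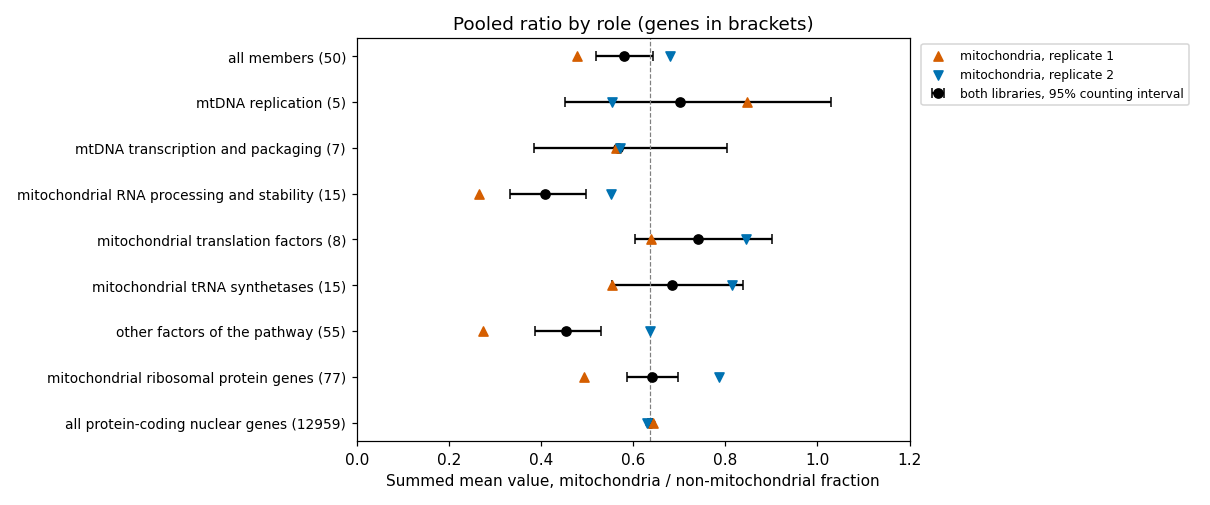
Ratio of the summed mean value in mitochondria to that in the non-mitochondrial fraction (horizontal axis) for the members, their roles and comparison sets. Black points are both mitochondria libraries with the 95% counting interval of their reads, triangles the single libraries, and the dashed line all protein-coding nuclear genes at 0.637. The RNA processing role lies at 0.408 and the transcription and packaging role at 0.567, each with both libraries below the line.

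Translation factors were the role with reads most regularly in mitochondria. Reads were present in both libraries for 7 of the 8, and the pooled ratio was 0.741 (0.604 to 0.901), at 0.639 and 0.844 by library. This was the highest pooled ratio of the 5 roles and that of RNA processing the lowest, an order seen in the values and not tested. In replicate 1 replication, at 0.847, lay above the translation factors. Without Tufm, which held 37 of the 101 reads, the translation factors were at 0.619 (0.477 to 0.791), an interval that overlapped that of RNA processing (0.332 to 0.498). Tufm, the elongation factor that brings charged tRNA to the ribosome, had the most reads of all members, 13 and 24. It was at 108 and 166 in mitochondria against 137 and 105 outside, and the log2 fold change was 0.16 (SE 0.49, limma adjusted p 0.839). Gfm1, the translocation factor, was at 17 and 83 against 143 and 134. Gfm1 was below both outside values in each mitochondria library and its ratio was 0.361 (0.197 to 0.606), at 0.123 and 0.599 by library, whereas Tufm overlapped the outside values.

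Mtif2, the initiation factor that places the first tRNA, was at 117 and 48 against 84 and 79, with log2 fold change -0.12 (SE 0.63). Gfm2, which acts in recycling of ribosomes, was at 25 and 28 against 72 and 77. It was one of 3 members with an unadjusted p under 0.05 (0.0315), with log2 fold change -1.46 (SE 0.41) and a limma adjusted p of 0.236. Mrrf, the ribosome recycling factor and lowest of the role per kb, was at 8 and 28 against 19 and 16. Of the rest, Tsfm and Mtif3 overlapped the outside values, and Mtrf1l was at 0 and 0 against 14 and 11.

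Among the tRNA synthetases, 1 gene was higher in both mitochondria libraries. Lars2, which charges the leucine tRNA (mm10, chromosome 9, 123366927 to 123462666, plus strand), was at 117 and 76 in mitochondria against 54 and 44 outside. Both mitochondria values exceeded both others, and it was the single tested member of which this was true (1 of 39, 2.56%, against 8.59% of the 8215 genes tested). The log2 fold change was 0.94 (SE 0.48, limma adjusted p 0.355), so it did not pass the test. The fold change stayed above 0 with each library left out (0.63 to 1.25) and turned to -5.7 when the totals of all genes, mtDNA included, were set equal. Its 25 reads gave a ratio of 1.97 (1.27 to 2.91). The longest match of Lars2 to a mitochondrial transcript was 27 bases at 85.2% identity, to mt-Rnr1, and among 354 annotated rRNA transcripts of the nuclear genome 29 bases at 82.8%, to CT010467.1. A full 28S rRNA sequence was not used here, so whether reads of nuclear rRNA contribute to Lars2 was not tested. The summed ratio of the members was 0.579 (0.52 to 0.643) with Lars2 and 0.548 (0.49 to 0.611) without it, a set left out after its value was seen.

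Iars2, the isoleucine enzyme and the highest of the role per kb, was at 25 and 117 against 182 and 133. Hars2, the histidine enzyme, was at 8 and 0 against 36 and 39. Both were below the outside values in each mitochondria library, as were 52.1% of all genes tested. Fars2, for phenylalanine, was at 33 and 62 against 47 and 33, and Tars2, for threonine, at 42 and 28 against 44 and 44. Wars2, for tryptophan and the lowest of the role, was at 8 and 0 against 5 and 9. Aars2, for alanine, had the lowest adjusted p of any member and is named for it. It was at 8 and 7, 1 read in each library, against 31 and 33 (log2 fold change -1.96, SE 0.41, limma adjusted p 0.168). Nars2, for asparagine, had the opposite sign at 8 and 41 against 14 and 8, but 6 of its 7 reads came from 1 library. The other 7 synthetases, Rars2, Vars2, Yars2, Sars2, Ears2, Mars2 and Cars2, had means of 11 to 33.5 outside and 0 to 6 reads in mitochondria.

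Across all members, none differed between the fractions by the test. Of the 50, 39 had a mean of at least 10 over the 4 libraries and entered the limma fit on log2 of the normalised count plus 1 across 8215 genes. Benjamini-Hochberg adjusted p-values of the 39 ran from 0.168 to 0.954, and 0 were called higher and 0 lower at 0.05, against 0.803% and 4.41% of all genes tested. At an unadjusted p under 0.05 stood 3 members (Aars2, Gfm2 and Elac2), against 18.1% of all genes. On reads, edgeR called 0 members (4.66% of all genes, lowest adjusted p 0.0634, for Elac2) and DESeq2 called 0 (6.01%, lowest 0.107). Leaving out either mitochondria library changed these counts, to 1 higher and 11 lower without replicate 1 and 1 higher and 25 lower without replicate 2, when limma took the spread of the lone mitochondria library from the non-mitochondrial pair and called 5.68% and 7.57% of all genes higher and 41.1% and 47.0% lower. With 2 libraries a group and 1 read worth several units, a missed threshold does not show that a member was equal in the fractions.

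The direction of the members lay near that of other genes. The median log2 fold change of the 39 was -1.46, against -1.23 over all genes tested and -1.28 over the 7649 tested protein-coding nuclear genes. Scaling moved both together, with -1.17 and -0.95 by TMM, -0.82 and -0.62 by median ratios over nuclear genes, and -7.24 and -7.15 with equal totals of all genes, and the members lay a further -0.23, -0.22, -0.2 and -0.09 from all genes under the deposited scaling and these 3. This order turned with the library, since the members' median was -0.63 against -0.92 for all genes without mitochondria replicate 1 (0.28 above) and -1.49 against -1.05 without replicate 2 (-0.44). Below both outside values in both mitochondria libraries were 24 of the 39 (61.5%), against 52.1% of all genes tested. The fold changes ran from -4.28 to 0.94, with 5 above 0 (Lars2, Nars2, Tfam, Fars2 and Tufm, of which all but Lars2 fell below 0 when 1 library was left out). With edgeR, which fits reads, the medians were -0.9 for the members and -0.81 for all genes.

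**Figure D4:**
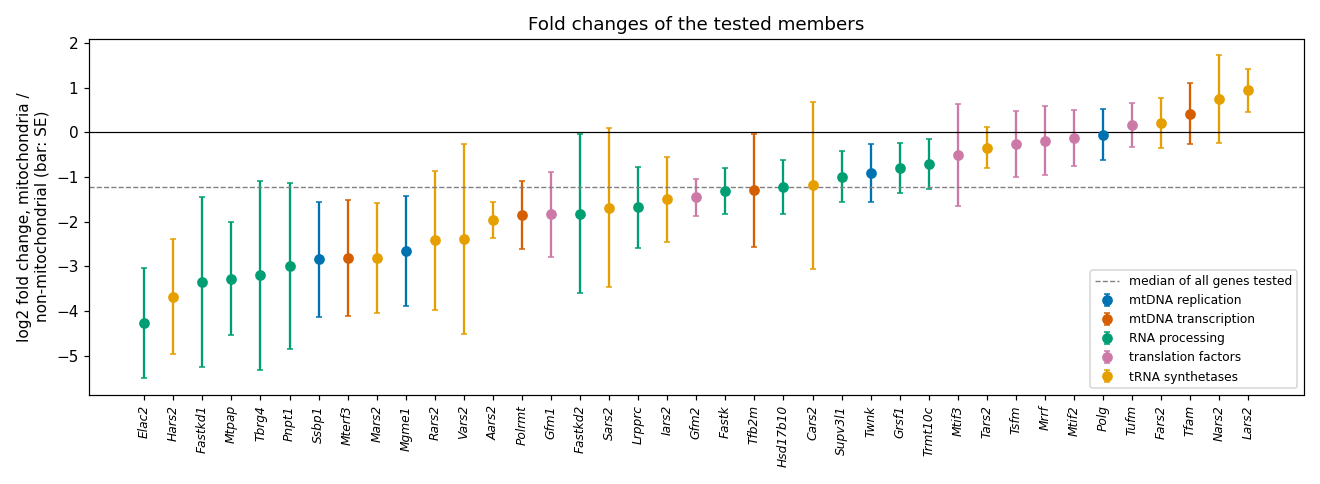
Log2 fold change, mitochondria over non-mitochondrial fraction (vertical axis, log2 of normalised count plus 1), of the 39 tested members in rising order, coloured by role, with bars of 1 SE. The solid line is 0 and the dashed line the median of all 8215 genes tested, -1.23; values run from -4.28 for Elac2 to 0.94 for Lars2, and none passed the test.

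Detection in mitochondria followed the level outside. Of the 50 members, 24 had a read in both mitochondria libraries, 19 in one and 7 in neither (Polg2, Tfb1m, Mterf4, Slirp, Fastkd5, Mtrf1l and Yars2). All 7 had a mean under 20 outside mitochondria. No read was found for 19 members in replicate 1 taken alone and for 14 in replicate 2. Of the 18 members with means below 20, 2 had reads in both libraries, against all 7 with means from 80 to 320. Protein-coding nuclear genes were counted at the same levels. From 40 to 80 units, 71.4% of members and 73.8% of protein-coding genes had reads in both, and from 20 to 40 units 45.5% and 46.2%. From 10 to 20 units the shares were 15.4% of 13 members and 24.5% of 2143 genes. No read was found for 60.0% of the 5 members and 49.5% of protein-coding genes below 10 units, for 30.8% and 26.4% from 10 to 20 units, and for 0% and 11.6% from 20 to 40 units.

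**Figure D5:**
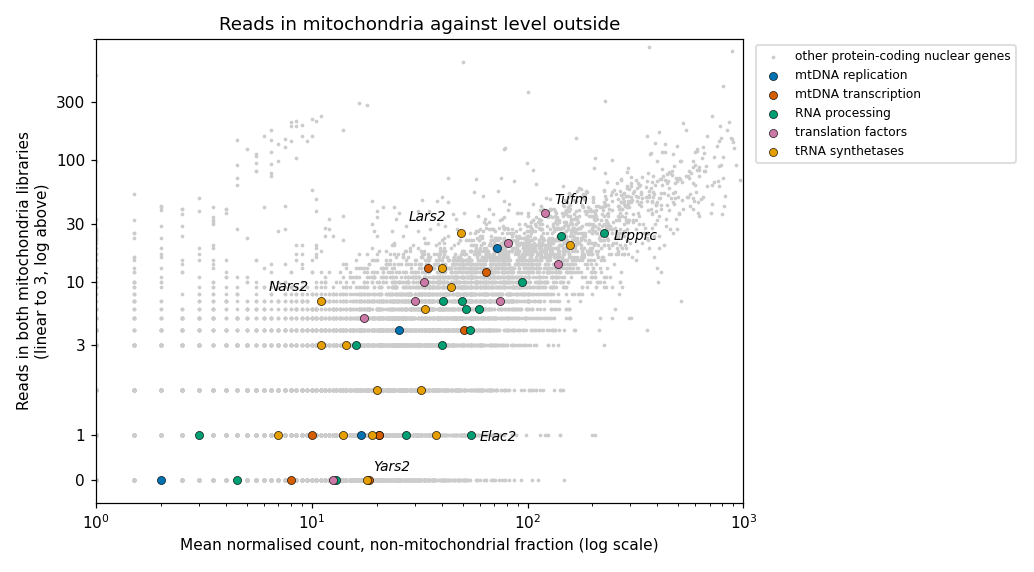
Reads in both mitochondria libraries together (vertical axis, linear to 3 and logarithmic above) against the mean normalised count in the non-mitochondrial fraction (horizontal axis, logarithmic). Grey points are other protein-coding nuclear genes and coloured points the members by role; the members lie within the grey band, with Lars2 (25 reads) and Nars2 (7) toward its upper side and Elac2 (1) toward its lower side.

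Against the ratio of protein-coding nuclear genes, the counting interval of 35 of the 43 members with a read covered 0.637. It lay above for Lars2, Nars2, Tfam and Tufm (9.3%) and below for Lrpprc, Gfm1, Elac2 and Hars2 (9.3%), against 13.7% and 10.0% of the 8401 protein-coding genes with a read in the range of levels of the members. The protein-coding ratio itself depended on level, at 2.2 under 10 normalised counts outside, 0.927 from 10 to 20 and 0.598 to 0.599 above 20, where the members were at 0.306 and 0.471 in the 2 low ranges and 0.571 to 0.623 above 20. Against the protein-coding ratio of their own level, the intervals of Nars2 (0.927) and Gfm1 (0.598) covered it and the other 6 kept their side. Of the 4 below, Lrpprc and Gfm1 were low in replicate 1 alone. For Nars2, Tfam and Tufm the 2 mitochondria libraries lay on both sides of an outside value, and these intervals do not hold the spread between libraries. For the members together the ratio was 0.479 in replicate 1 and 0.68 in replicate 2, while for protein-coding genes it was 0.644 and 0.631.

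Liver and skeletal muscle markers were higher in mitochondria replicate 1, and brown adipocyte and red blood cell markers in replicate 2. The summed normalised counts of 5 liver genes were 8954 and 656 in mitochondria and 153 and 5 outside, and those of 6 skeletal muscle genes 2930 and 952 against 267 and 565. The 10 brown adipocyte genes summed to 2813 and 7633 in mitochondria and 13464 and 12043 outside, and the defining marker Ucp1 was at 1290 and 3554 against 4819 and 4185. The 5 macrophage genes summed to 283 and 261 against 73 and 75, the 5 endothelial genes to 92 and 7 against 838 and 889 (4 of the 5 at 0 in mitochondria replicate 2), and the 5 red blood cell genes to 250 and 635 against 296 and 624. The part of these cells in the members' values was not tested.

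Some members share sequence or position with other genes, and their values are less certain. Reads with several positions were left out by the authors, and a pseudogene matched at 97% identity or more over at least 75 bases to 7 members. The longest such stretches were those of Tufm (Gm9755, 1356 bases), Tfb2m (Gm1818, 1187 bases), Mrrf (Gm6374, 789 bases) and Ssbp1 (Gm12115, 447 bases). The bounds of 23 members overlap those of another listed gene, 19 of them a protein-coding gene. No member matched a mitochondrial transcript at 90% identity over 50 bases, and the longest match was 41 bases at 75.6%, of Supv3l1 to mt-Nd6.

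Further factors of the same machinery were counted in the same way. From a list of 56 further genes, chosen with earlier results of these data known, 55 were in the table and 34 were tested. None was called in either direction by limma, edgeR or DESeq2, 4 had an unadjusted p under 0.05 (18.1% of all genes tested), and the median log2 fold change was -1.72, against -1.23 over all genes tested. No read was found in mitochondria for 15 of the 55, a share not matched on level. At least 3 reads in each mitochondria library were found for 3 genes. Rexo2, which degrades short RNA remnants, was at 25 and 35 against 55 and 57. Pde12, which removes poly(A) tails, was at 25 and 21 against 26 and 14. Mtres1, which acts on mitochondrial transcription under stress, was at 33 and 48 against 60 and 54. The summed ratio of these factors was 0.455 (0.386 to 0.531), at 0.273 and 0.636 by library. The 77 genes of mitochondrial ribosomal proteins stood at 0.64 (0.586 to 0.697), at 0.494 and 0.786.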

How the data were processed

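RNA-seq of 4 BAT libraries was used, 2 of isolated mitochondria and 2 of the non-mitochondrial fraction. The authors deposited a signal, gene counts divided by a size factor per library and rounded to whole numbers. Per the submitters' processing notes, Trimmomatic 0.39, STAR 2.7.10a, featureCounts 2.0.2 and DESeq2 1.30.1 were used on mm10, and the methods of the study name other versions of STAR, the read counter and DESeq2. Whether counting used strand is not given in the sources used here. Whole reads were recovered from the deposited signal in the mitochondria libraries (100.0% of values within rounding), not in the others, so depth is unknown there. Recovery was tested on simulated data, with 0 reads wrong in 4 columns of 17000 genes.

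Genes with a mean of at least 10 were compared as log2(value + 1) with limma 3.58.1 in R 4.3.3. Alternatives were another pseudocount, filters, scalings, edgeR 4.0.16 and DESeq2 1.42.0 on reads (deposited values standing in for reads outside mitochondria, offsets keeping the deposited scaling), a replicate block and each library left out. Fold changes on this scale understate changes of low genes that are 0 in both libraries of a group and can exceed those fitted on reads where 1 mitochondria library is at 0 (Tbrg4, -3.2 against -1.4 by edgeR). Exon lengths are unions of GENCODE M21 exons, in which 99.1% of genes had the same coordinates. Matches were found with BLAST 2.17.0 and left 17 nuclear genes out of the nuclear totals. The members and lists were chosen with earlier results of these data known. Given with every value were members past the test, the 2 highest and the lowest per kb of each role, those with at least 3 reads in each mitochondria library, and all of replication and transcription. The sources do not say that replicates came from separate animals, so p-values measure only the spread between these samples, which may be technical.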

Additional observations from a re-analysis of the deposited data

How the results depend on the processing

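No member was called by limma in either direction with a pseudocount of 10, a mean of at least 50, TMM, median ratios or equal totals over nuclear genes, by edgeR or DESeq2 on reads, or with the replicate block, which left 0 calls among all genes and the members' median at -1.46. Of all genes, 0.0122% were called lower with a pseudocount of 10 and 0.443% with a mean of at least 50. With TMM, median ratios and equal nuclear totals it was 4.31 to 4.37%, and with edgeR and DESeq2 2.5% and 3.66%. Called higher were 0.645 to 2.58% over these settings, the replicate block apart. Deviations of same-numbered libraries correlated at 0.112. Whether same-numbered libraries came from the same tissue is not given in the sources used here, and 2 pairs cannot settle it. With all genes that had any value, 8 members were lower (6 of them without a read in mitochondria), and 10 other factors, where 20.8% of all genes were called lower. With equal totals of all genes, in which mtDNA transcripts set the scale, all 39 tested members and all 34 tested other factors were lower (96.9% of all genes), the median was -7.24, and Lars2 (-5.7), Nars2 (-5.23), Tfam (-6.06), Fars2 (-6.28) and Tufm (-6.53) turned negative. The median was -0.82 with median ratios over nuclear genes. Above 0 came Polg with TMM (0.24), median ratios (0.59), equal nuclear totals (0.55), edgeR (0.0074) and DESeq2 (0.021), and Mtif2 with the first 3 of these (0.17, 0.53 and 0.48). Over the 39 tested members, 6 changed sign with these nuclear scalings, 4 with edgeR or DESeq2, and 14 with 1 library left out, and 24 kept their sign under every alternative run other than equal totals of all genes. Apart from those scalings the cause was not tested.

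With 1 library left out, calls ran from 0 to 1 higher and from 0 to 25 lower among members, and from 0 to 1 higher and 0 to 22 lower among other factors, all calls arising without 1 of the mitochondria libraries. With a non-mitochondrial library left out, limma made no call among all genes either, so those fits cannot show whether members differed. With each library left out in turn, the members' median log2 fold change ran from -1.56 to -0.63. The share difference ran from -0.0886 to 0.0207 percentage points. Members with no read ran from 14 to 19 for single libraries, and the median level per kb from 6.44 to 6.56. Fold changes ran from -0.57 to 0.47 for Polg, from -0.27 to 1.12 for Tfam, from -0.15 to 0.47 for Tufm, from -0.75 to 0.52 for Mtif2, from -0.25 to 0.64 for Fars2 and from -0.37 to 1.85 for Nars2, and below 0 throughout from -1.72 to -0.9 for Fastk. Fewer than 3 reads over both libraries were found for 20 members, in place of 7 with none. With all nuclear genes as denominator the share difference was -0.273 percentage points, and with all genes -0.129. Depth limits single members, 28 of the 50 with 5 reads or fewer in mitochondria.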

Other observations

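Among the other factors, Pars2, which encodes the mitochondrial proline tRNA synthetase and is named here after its values were seen, was at 0 and 76 in mitochondria against 6 and 2 outside. All 11 of its reads came from replicate 2.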
